A study of Xenopus laevis with 12 samples.

Results

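The forkhead box (Fox) genes code for transcription factors that share a winged-helix DNA-binding domain. They were taken here as every probe set of the array whose single annotated symbol is fox followed by a letter and a digit. This gave 52 of the 32539 probe sets tested, for 42 genes, or 33 when the .L and .S copies of the long and short subgenome of the allotetraploid frog are counted together. A further 3 probe sets annotated with a Fox gene among several genes were left out. Probe sets of one gene are numbered in the order of their identifiers, and each may also hybridise to the other copy of the gene.

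Whole *Xenopus laevis* embryos were profiled on 12 arrays to find genes that respond to depletion of fam46a, a gene of the FAM46 (TENT5) family of non-canonical poly(A) polymerases. Morpholino oligonucleotides (MOs), which block translation or splicing of a target RNA, were put into the animal pole of each blastomere at the 4-cell stage, and embryos were kept at 22 °C. The groups were Fam46a-MO1 at 10 ng per cell (MO1), Fam46a-MO2 with Fam46a-MO3 at 7 ng each per cell (MO2+MO3) and the control oligonucleotide CoMO at 10 ng per cell, each sampled as blastulae (stage 8) and as early gastrulae (stage 10.5). Each of the 6 groups held 2 biological replicates. The labels do not say which reagent blocks translation, what a replicate number shares or how many embryos made up a sample.

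Fox genes divide much of the early frog embryo between them. FoxH1 is a maternal partner of Smad2 that carries Nodal signals to mesendoderm genes, FoxI factors mark ectoderm, FoxA factors act in endoderm, organizer and floor plate, and FoxC factors act in paraxial and intermediate mesoderm. FoxD and FoxB factors act in organizer, neural plate and neural crest, FoxJ1 drives motile ciliogenesis, and FoxO factors are held out of the nucleus by PI3 kinase and Akt signalling.

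All values are log2 values that had been centred, probe set by probe set, on the 6 arrays of a stage, so they show differences between arrays of one stage and no level. Array medians lay between -0.0103 and 0.0121. The targeted gene, listed as tent5a.L (gene 100158383), has 2 probe sets, whose changes in either reagent against CoMO ran from -0.16 to 0.39 over both stages. The lowest adjusted p was 0.839, and 0.171 with the replicate block, and since a block of translation need not alter the RNA level, they test neither labels nor depletion. An array below a recovered log2 level of 4 was counted as dim. At stage 10.5 the lowest array lay below 4 for 3 of 17 ectoderm marker probe sets (dlx3.L, krt12.4.L and krt12.4.S). The same held for 0 of 17 of mesoderm and 2 of 21 of endoderm (darmin.L and gata4.L). Each change was tested with limma over all 32539 probe sets, without a block and with a block for replicate number and stage. The block matters here because arrays with the same number deviated together. Changes are the same in both fits, and ± gives the standard error of the fit with the block unless stated.

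Although a level cannot be read directly, the power-of-2 interval holding the lowest array of each stage could be recovered from the rounding of the deposited numbers. At stage 8, 32 of the 52 Fox probe sets (61.5%) had their lowest array below 4, against 38.9% of all probe sets. At stage 10.5 the count was 17 (32.7%), against 38.3% of all. All FoxA, FoxC, FoxD, FoxB and FoxF probe sets lay below 4 at stage 8, and at stage 10.5 those of foxa1, foxa4, foxb1, foxc1, foxc2, foxd3, foxd4l1.1 and foxd4l1.2, with the first of foxa2.L, lay at 4 or above. Both copies of foxa4, also called pintallavis, had their lowest array in the interval from 1 to 2 at stage 8 and from 8 to 16 at stage 10.5. At stage 8 the probe sets in the interval from 8 to 16 were the second of foxh1.L, those of foxi2.L and foxi2.S, foxk2.L, foxn2.S, foxr1.L and the second of foxo3.L.

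**Figure D1:**
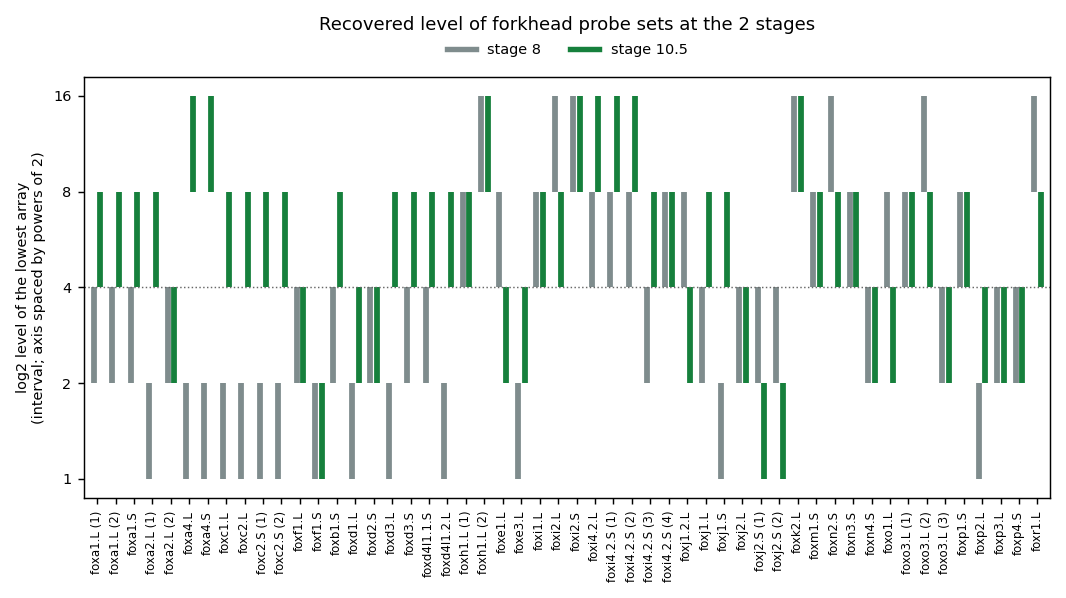
Interval of log2 level that holds the lowest of the 6 arrays of a stage, for each of the 52 Fox probe sets (numbers in brackets tell probe sets of one gene apart), at stage 8 (grey) and stage 10.5 (green). The axis is spaced by powers of 2 and the dotted line marks 4. The FoxA, FoxC and FoxD bars lie below the line at stage 8, and most lie above it at stage 10.5.

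At stage 10.5 several Fox genes were lower for the mean of both reagents than with CoMO in the fit with the block. A smaller number were higher. Among the lower genes of endoderm and paraxial mesoderm, foxa2 (on its first probe set), foxc1 and foxc2 were called in each reagent. Those of the FoxB and FoxD class, among them foxd3, were called lower in MO1 only. A call in 1 reagent only does not by itself show a difference between the reagents. For foxd3.L, MO2+MO3 minus CoMO was also below 0 within each replicate number, at -0.37 and -0.44. With the block, 4 of the 7 probe sets of the FoxB and FoxD class were called lower in MO1 and 0 in MO2+MO3. Of all probe sets 7.75% and 7.77% were. Between the reagents, 2 of the class (foxb1.S and foxd3.L) were lower in MO1 and 1 was higher, where 5.38% and 4.36% of all were. Neither of these lower calls held in any fit that leaves out 1 array. With the block, 13 Fox probe sets fell and 7 rose for the mean of both reagents, together 20 probe sets of 18 genes, where 9.1% of all probe sets fell and 10% rose. Without the block limma called 2 higher and 0 lower, where 0.532% of all rose and 0.464% fell, and 9 were lower at an unadjusted p under 0.05, where 6.01% of all were. The Fox share called with the block was 38.5%, against 19.1% of all probe sets. On this comparison the median change was -0.06 over the Fox probe sets and 0.01 over all. The members that moved most were foxa2.L, foxc1.L and foxc2.L on the lower side and foxd4l1.2.L, foxo3.L and foxi2.L on the higher side. Of these, foxd4l1.2.L was called in MO1 (change 1.43) and not in MO2+MO3 (0.24). In extracts of whole embryos, fewer cells of a type and less RNA per cell cannot be told apart.

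**Figure D2:**
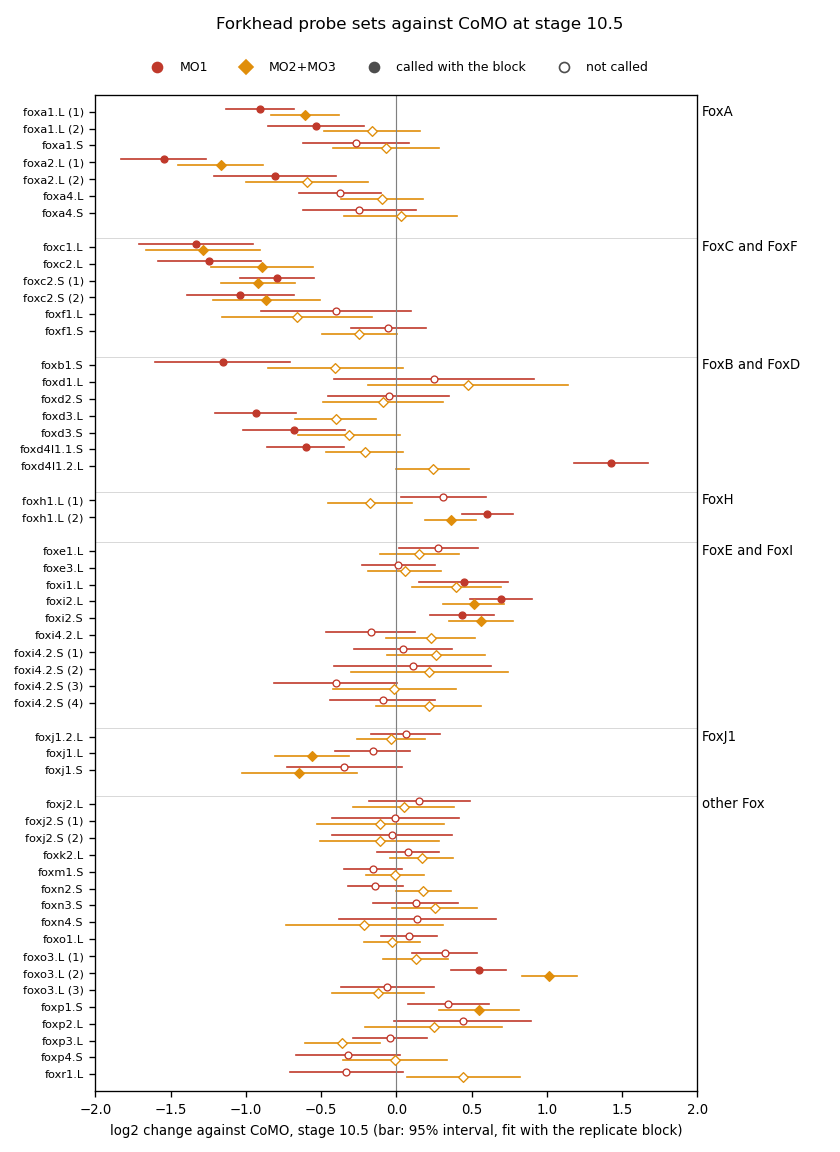
Log2 change against CoMO at stage 10.5 for each of the 52 Fox probe sets, in MO1 (circles) and MO2+MO3 (diamonds), grouped by class. Bars are 95% intervals of the fit with the replicate block, filled symbols mark an adjusted p under 0.05 in that fit. The FoxC symbols lie to the left of 0 in both reagents, foxd4l1.2.L lies to the right in MO1, and the second probe set of foxo3.L lies to the right in both.

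By reagent, 12 Fox probe sets fell and 6 rose in MO1 with the block, where 7.75% of all probe sets fell and 8.48% rose. In MO2+MO3, 8 fell and 5 rose, where 7.77% of all fell and 9.02% rose. Without the block limma called 1 higher and 0 lower in each reagent, where 0.916% of all were called in MO1 and 0.907% in MO2+MO3. At an unadjusted p under 0.05, 6 were lower in MO1 and 3 in MO2+MO3, where 5.26% and 5.53% of all were. The reagents share their CoMO arrays, so these counts are not independent of each other. The CoMO arrays lay outside the range of all 4 reagent arrays for 10 Fox probe sets (19.2%), against 19.8% of all probe sets. Of these, 7 had higher reagent arrays and 3 lower ones, where 10.4% and 9.34% of all did.

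Among the FoxA genes, foxa2.L (gene 100127318) codes for a pioneer factor of endoderm and axial mesoderm. Its first probe set fell in both reagents with the block. There the 2 MO1 arrays read -1.48 and 0.18, the MO2+MO3 arrays -1.21 and 0.67, and the CoMO arrays -0.18 and 1.96. The second replicate was higher by 1.67 in MO1, 1.88 in MO2+MO3 and 2.15 in CoMO, and within each replicate number both reagent arrays lay below the CoMO array, although over all 6 arrays the groups overlapped. The change was -1.54 ± 0.12 with MO1 and -1.17 ± 0.12 with MO2+MO3 (with the block, adjusted p = 0.000252 and 0.000856, 0.593 and 0.736 without it). For the mean of both reagents it was -1.36 ± 0.11 (0.000258 with the block, 0.527 without it).

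On the second probe set of foxa2.L, which reached a level below 4 at stage 10.5, MO1 arrays read -0.58 and -0.03, MO2+MO3 arrays -0.47 and 0.29, and CoMO arrays 0.03 and 0.97. The order within each replicate number was the same as on the first. In MO1 this second probe set had a change of -0.81, called with the block (adjusted p = 0.0172). That call was lost whichever of the 4 arrays compared was left out. In MO2+MO3 the probe set was not called. Its mean change of -0.70 ± 0.15 was called with the block (adjusted p = 0.0147), but without CoMO replicate 1, CoMO replicate 2 or MO1 replicate 2 the block fit gave 0.0608, 0.176 and 0.0546.

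The related foxa1.L, another FoxA pioneer factor, fell on its first probe set. MO1 arrays read -1.20 and 0.12, MO2+MO3 arrays -0.82 and 0.33, and CoMO arrays -0.12 and 0.86, again with reagent arrays below CoMO within each replicate number and with overlap between them. The mean change was -0.76 ± 0.09 (adjusted p = 0.00095 with the block, 0.597 without it). In MO2+MO3 alone it was -0.61 (0.005 with the block), and 0.0548 without CoMO replicate 1. Its second probe set had a mean change of -0.35 ± 0.12 and was called with the block in MO1 only (-0.53, adjusted p = 0.0337, against 0.51 in MO2+MO3), a call lost whichever of the 4 arrays compared was left out. The copy foxa1.S had a change of -0.17 ± 0.13 (0.461), and foxa4.L and foxa4.S had changes of -0.24 ± 0.10 and -0.11 ± 0.14 (0.161 and 0.677).

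The class of FoxC and FoxF genes gave the lowest median change of the 7 classes, -0.92 in MO1 and -0.88 in MO2+MO3 over its 6 probe sets. All 4 FoxC probe sets fell with the block in both reagents. For foxc1.L (gene 734912), a regulator of somite and kidney field formation, MO1 arrays read -1.27 and 0.18, MO2+MO3 arrays -0.87 and -0.14, and CoMO arrays 0.14 and 1.43. Of the 4 reagent arrays, 1 MO1 array lay just above the lower CoMO array, and both reagents lay below CoMO within each replicate number, with MO1 minus CoMO at -1.41 and -1.25. The change was -1.33 ± 0.17 in MO1 and -1.29 ± 0.17 in MO2+MO3, and -1.31 ± 0.14 for their mean (adjusted p = 0.00158, 0.00188 and 0.000851 with the block, 0.389, 0.404 and 0.268 without it). The copy foxc1.S has no probe set of its own among the members.

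For foxc2.L, which acts beside FoxC1 in paraxial mesoderm, MO1 arrays read -1.58 and 0.18, MO2+MO3 arrays -0.86 and 0.16, and CoMO arrays -0.16 and 1.24. The mean change was -1.07 ± 0.13 (adjusted p = 0.00122 with the block, 0.551 without it). Both probe sets of foxc2.S fell too, with mean changes of -0.86 ± 0.09 and -0.95 ± 0.13 (0.00081 and 0.00236 with the block, 0.377 and 0.329 without it). The first read -0.66 and 0.11 in MO1, -0.84 and 0.04 in MO2+MO3 and -0.04 and 1.09 in CoMO, so the higher CoMO array stood above all reagent arrays and the lower one did not. On the second, the call in MO2+MO3 was lost without CoMO replicate 2 or MO2+MO3 replicate 2 (0.055 and 0.0587). In the gene table of the assembly, foxc2.L lies next to foxl1.L and foxc1.L next to foxf2.L, but neither neighbour has a probe set of its own here.

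The lateral mesoderm gene foxf1 was not called. The change of foxf1.L for the mean of both reagents was -0.53 ± 0.19 and that of foxf1.S was -0.15 ± 0.09 (adjusted p = 0.089 and 0.333 with the block), and at stage 10.5 both reached a level below 4.

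In the FoxB and FoxD class the 2 measured foxd4l1 genes moved in opposite directions in MO1 with the block. foxd4l1.2.L (gene 373630), a member of the foxd5 group that keeps neural ectoderm immature, rose in MO1, where its arrays read 1.02 and 1.35. In MO2+MO3 they read 0.03 and -0.03, and in CoMO -0.24 and -0.24. The 2 MO1 arrays stood above all others, and the MO2+MO3 arrays lay between MO1 and CoMO without overlap. The change in MO1 was 1.43 ± 0.12 without the block (adjusted p = 0.00289, and 0.000186 with it). In MO2+MO3 it was 0.24, with the same standard error (0.52, and 0.169 with the block) and a 95% interval from -0.03 to 0.52. The difference between the reagents was 1.18 ± 0.12 without the block (adjusted p = 0.00833, and 0.000605 with it). In the fit with no block that call was lost without MO1 replicate 2, MO2+MO3 replicate 1 or MO2+MO3 replicate 2 (differences of 1.02, 1.22 and 1.15). With the block the call in MO1 held whichever of the 4 arrays compared was left out, with changes of 1.25 to 1.61. On the arrays of stage 10.5 alone it was called with the block (adjusted p = 0.00324) and not without it.

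The probe set foxd4l1.1.S is of the short-subgenome copy of foxd4l1.1, so it is not the neighbour of foxd4l1.2.L. It was outside the rule for named genes and was chosen after its values were seen. MO1 arrays read -0.64 and -0.14, MO2+MO3 arrays -0.05 and 0.05, and CoMO arrays 0.06 and 0.36. It fell in MO1 with the block, by 0.60 on the log2 scale (adjusted p = 0.00818, and 0.216 without the block), a call held in 1 of the 4 fits that leave out 1 array and lost without CoMO replicate 1, CoMO replicate 2 or MO1 replicate 1. In MO2+MO3 its change was -0.21 (0.254 with the block). The gene table places 1 protein-coding gene between foxd4l1.1.L and foxd4l1.2.L, and foxd4l1.1.L has no probe set of its own among the members.

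The neural crest and blastula gene foxd3 fell with MO1. For foxd3.L the MO1 arrays read -0.73 and -0.33, the MO2+MO3 arrays -0.03 and 0.03, and the CoMO arrays 0.34 and 0.46, so the 3 injections did not overlap. The change was -0.93 ± 0.12 in MO1 (adjusted p = 0.00163 with the block, 0.0799 without it) and -0.40 ± 0.12 in MO2+MO3 (0.0504 with the block). The difference between the reagents, -0.53 ± 0.12, had an adjusted p of 0.0257 with the block, but in none of the 4 fits without 1 array was it called. The copy foxd3.S had a change of -0.68 ± 0.15 with MO1 and -0.32 ± 0.15 with MO2+MO3 (0.0166 and 0.2 with the block), and its MO1 call was lost without CoMO replicate 1 or MO1 replicate 1 (0.154 and 0.172).

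For foxb1.S, a gene of the posterior neural plate, the MO1 arrays read -0.74 and -0.71, the MO2+MO3 arrays 0.05 and 0.00, and the CoMO arrays 0.00 and 0.86. The 2 MO1 arrays were the lowest, and MO2+MO3 overlapped with the lower CoMO array. It fell in MO1 with a change of -1.15 ± 0.20 (adjusted p = 0.00571 with the block, 0.095 without it), and its change in MO2+MO3 was -0.41 ± 0.20 (0.214 with the block). The mean change of -0.78 was called with the block (0.0141) but not without CoMO replicate 2 or MO1 replicate 2 (0.133 and 0.0523), and the MO1 call was lost without MO1 replicate 2 (0.0695). The neural and mesodermal genes foxd1.L and foxd2.S were not called, and at stage 10.5 both reached a level below 4. For foxd1.L replicate 2 minus replicate 1 was -0.88 in MO1 and -2.29 in MO2+MO3, and it was below 0 in CoMO as well.

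FoxH1, the Smad2 partner, rose on the second of its 2 probe sets (foxh1.L). There the MO1 arrays read 0.58 and 0.03, the MO2+MO3 arrays 0.33 and -0.21, and the CoMO arrays -0.03 and -0.57. Replicate 2 minus replicate 1 was -0.54 in MO1, -0.54 in MO2+MO3 and -0.53 in CoMO, and MO1, MO2+MO3 and CoMO stood in that order within each replicate number. The change was 0.61 ± 0.07 with MO1 and 0.36 ± 0.07 with MO2+MO3 (with the block, adjusted p = 0.00149 and 0.0131, 0.422 and 0.732 without it). The call in MO2+MO3 was lost in each of the 4 fits without 1 array, with p up to 0.0915. The first probe set had changes of 0.31 ± 0.12 and -0.17 ± 0.12 (0.131 and 0.407), and its difference between the reagents, 0.49, had 0.0424 with the block, lost without MO1 replicate 1, MO1 replicate 2 or MO2+MO3 replicate 1.

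Among the ectodermal FoxI genes, both copies of foxi2, a maternal gene that activates foxi1 in the animal cap, rose with the block. For foxi2.L (gene 494806) the MO1 arrays read 0.26 and 0.10, the MO2+MO3 arrays 0.08 and -0.08, and the CoMO arrays -0.33 and -0.69, with all 4 reagent arrays above both CoMO arrays. The change was 0.69 ± 0.09 with MO1 and 0.51 ± 0.09 with MO2+MO3 (with the block, adjusted p = 0.00175 and 0.00647, 0.235 and 0.413 without it). For foxi2.S the MO1 arrays read 0.36 and -0.10, the MO2+MO3 arrays 0.41 and 0.10, and the CoMO arrays -0.21 and -0.41, likewise without overlap. Its changes were 0.44 ± 0.09 in MO1 and 0.56 ± 0.09 in MO2+MO3 (0.0154 and 0.00534 with the block, 0.402 and 0.237 without it). The foxi2.S calls were lost without CoMO replicate 1 (0.141 in MO1, 0.0598 in MO2+MO3), and also without MO1 replicate 1 (0.164) in MO1 or MO2+MO3 replicate 2 (0.0524) in MO2+MO3. The foxi2.L call in MO2+MO3 was lost without CoMO replicate 2 or MO2+MO3 replicate 2 (0.0648 and 0.0684).

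The zygotic gene foxi1.L, also called foxi1e or xema, a specifier of ectoderm, was outside the rule for named genes and was chosen after its values were seen. Its MO1 arrays read 0.42 and -0.06, its MO2+MO3 arrays 0.20 and 0.06, and its CoMO arrays -0.29 and -0.25, with no overlap between reagents and CoMO. Its mean change of 0.42 ± 0.11 had an adjusted p of 0.0314 with the block, and the call was lost without CoMO replicate 1, MO1 replicate 1 or either MO2+MO3 array. The 5 probe sets of foxi4.2, whose product acts in preplacodal ectoderm, were not called, with mean changes from -0.21 to 0.16. Of 44 probe sets of a list of non-neural ectoderm genes, 20 fell and 1 rose with the block for the mean of both reagents, where 9.1% of all fell and 10% rose. Without it 9 fell and 0 rose, where 0.464% of all fell and 0.532% rose, and 14 of the 44 had their lowest array below a level of 4. The epidermal keratins krt12.5.S and krt12.4.L had changes of -2.91 and -2.62, each with its lowest array below a level of 4.

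The forkhead gene of the insulin pathway, foxo3.L (gene 444992), rose on the second of its 3 probe sets. There the MO1 arrays read 0.14 and -0.14, the MO2+MO3 arrays 0.54 and 0.40, and the CoMO arrays -0.45 and -0.64. The 3 injections did not overlap, with MO2+MO3 highest. The change was 1.02 ± 0.13 in MO2+MO3 without the block (adjusted p = 0.0186, and 0.000277 with it) and 0.55 ± 0.13 in MO1 (0.118, and 0.00305 with it). The difference between the reagents was -0.47 ± 0.08 (0.00909 with the block, 0.245 without it), lost with the block without MO1 replicate 2 or MO2+MO3 replicate 2. Without the block the call in MO2+MO3 was lost in each of the 4 fits that leave out 1 array, with p between 0.0643 and 0.16, and with the block it held in all 4.

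The other probe sets of foxo3.L were not called. On the first, MO1 minus CoMO was 0.29 and 0.36 within the replicate numbers, and MO2+MO3 minus CoMO was -0.02 and 0.28. The first differed from CoMO by 0.32 ± 0.09 with MO1 and 0.13 ± 0.09 with MO2+MO3 (adjusted p = 0.0516 and 0.427 with the block), and the third, which lay below a level of 4, had -0.06 ± 0.13 and -0.12 ± 0.13 (0.832 and 0.627). Averaged over its 3 probe sets, foxo3.L had a mean change of 0.31 (adjusted p = 0.17, and 0.0096 with the block). The calls on single probe sets therefore rest on 1 of 3. foxo1.L had a change of 0.09 with MO1 and -0.03 with MO2+MO3 and was not called, with its lowest array below a level of 4.

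**Figure D3:**
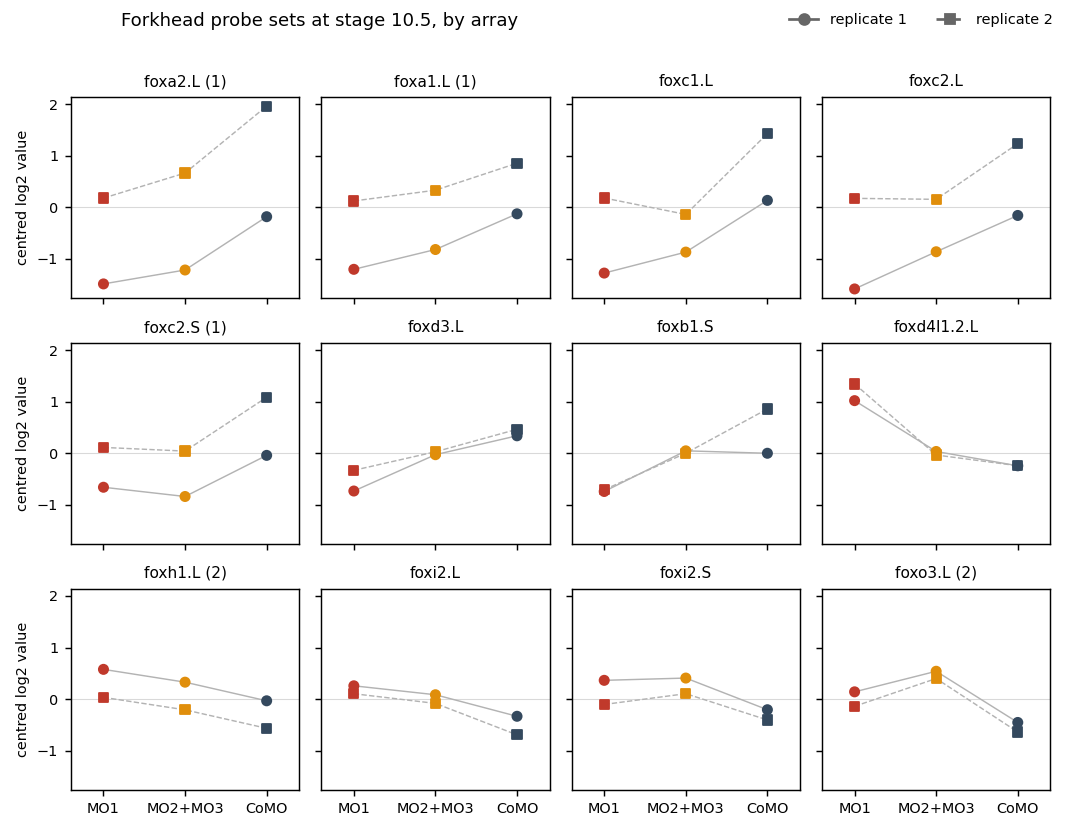
Centred log2 value of each stage 10.5 array for 12 Fox probe sets, by injection (MO1, MO2+MO3, CoMO). Circles and solid lines mark replicate 1, squares and dashed lines replicate 2, and lines join arrays of one number. For foxa2.L, foxa1.L and the FoxC genes the replicate 2 arrays sit above those of replicate 1 in every injection. For foxd4l1.2.L, foxd3.L and the second probe set of foxo3.L the injections do not overlap. Their replicate 2 minus replicate 1 in MO1 was 0.32, 0.40 and -0.28.

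Of the 3 FoxJ1 probe sets, those of foxj1.L and foxj1.S, genes of motile cilia, fell in MO2+MO3 with the block, while foxj1.2.L, whose lowest array lay below a level of 4, had a change of -0.04 there (adjusted p = 0.861 with the block). For foxj1.L the MO1 arrays read 0.22 and -0.13, the MO2+MO3 arrays -0.24 and -0.48, and the CoMO arrays 0.28 and 0.13. Its change was -0.56 ± 0.11 in MO2+MO3 and -0.16 ± 0.11 in MO1 (0.0096 and 0.393 with the block), and foxj1.S had -0.65 ± 0.17 and -0.35 ± 0.17 (0.0324 and 0.217). All 3 were chosen after their values were seen, and each call in MO2+MO3 was lost without CoMO replicate 2, MO2+MO3 replicate 1 or MO2+MO3 replicate 2. foxp1.S, a repressor of the FoxP group, rose in MO2+MO3, where its arrays read 0.18 and 0.23, beside 0.11 and -0.11 in MO1 and -0.20 and -0.49 in CoMO. Its change was 0.55 ± 0.12 (0.0149 with the block, 0.26 without it), lost without CoMO replicate 2 or MO2+MO3 replicate 2 (0.13 and 0.152).

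Between the reagents, 5 Fox probe sets were lower and 2 higher in MO1 than in MO2+MO3 with the block, where 5.38% of all probe sets were lower and 4.36% higher. Without the block 1 was higher, foxd4l1.2.L, where 0.55% of all were called. The lowest difference was that of foxr1.L, a gene expressed in oocytes and early embryos, at -0.78 ± 0.16 (adjusted p = 0.021 with the block, 0.844 without it). Its MO1 arrays read -0.03 and -1.13, its MO2+MO3 arrays 0.37 and 0.03, and its CoMO arrays 0.27 and -0.76, so the MO1 and CoMO arrays overlapped. The call was lost without MO1 replicate 2 or MO2+MO3 replicate 2 (0.217 and 0.0952). Of the 7 calls, foxd4l1.2.L alone held in all 4 fits that leave out 1 array.

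At stage 8 no Fox probe set was called by limma in MO1, in MO2+MO3, for their mean or between the reagents, with or without the block. The block fit called 0.123%, 0.141%, 0.0522% and 0.381% of all probe sets in these comparisons, and the fit without it 0.00615%, 0%, 0% and 0.00615%. At an unadjusted p under 0.05, 3, 6, 5 and 2 Fox probe sets passed with the block, where 8.19%, 10.9%, 9.2% and 11% of all did. Without it 1, 1, 2 and 2 passed, where 1.93%, 2.34%, 2.04% and 2.44% of all did. The FoxA, FoxC and FoxD probe sets all had their lowest array below a level of 4 at this stage. A difference may not be detectable there.

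Array values of 2 ectodermal members with a measurable level at stage 8 are given, chosen after their values were seen. In MO1 the lowest change of the FoxE and FoxI class was -0.88, on the second probe set of foxi4.2.S, and was not called. In MO2+MO3 the lowest was that of foxi1.L, at -0.63. For foxi1.L the MO1 arrays read -0.86 and 0.41, the MO2+MO3 arrays -0.94 and 0.45, and the CoMO arrays -0.41 and 1.18. Both reagents lay below CoMO within each replicate number, with changes of -0.60 and -0.63 (adjusted p = 0.219 and 0.157 with the block, 1 and 1 without it). For foxe1.L, a gene of thyroid and oral ectoderm in later stages, the MO2+MO3 arrays read 0.64 and 0.43, above -0.09 and 0.04 in MO1 and -0.10 and -0.04 in CoMO. Its change of 0.60 in MO2+MO3 had an adjusted p of 0.131 with the block and 0.849 without it.

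The change of each effect between the stages was tested as well. With the block 6 Fox probe sets had a lower and 4 a higher MO1 effect at stage 10.5 than at stage 8, where 2.14% and 2.02% of all probe sets did. For MO2+MO3, 5 were lower and 2 higher, where 1.38% and 2.46% of all were. Without the block limma called 0 for either reagent, where 0.0215% and 0.00922% of all were called, and 5 for MO1 and 3 for MO2+MO3 passed at an unadjusted p under 0.05, where 4.74% and 4.55% of all did. The largest by size were foxd4l1.2.L, at 1.40 for MO1, and the first probe set of foxa2.L, at -1.38 for MO1 and -1.05 for MO2+MO3. Both had their lowest stage 8 array in the interval from 1 to 2, where an effect may not be detectable.

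**Figure D4:**
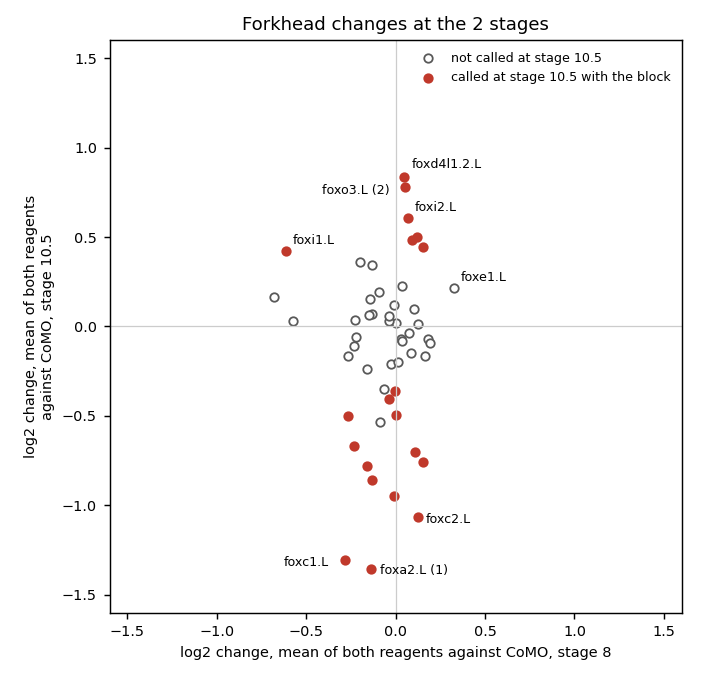
Log2 change for the mean of both reagents against CoMO at stage 8 (horizontal axis) and stage 10.5 (vertical axis), 1 point per Fox probe set. Filled points had an adjusted p under 0.05 at stage 10.5 with the replicate block. Along the vertical axis they run from -1.36 (foxa2.L) to 0.83 (foxd4l1.2.L), while no point was called at stage 8.

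Lists of genes that work with these factors were counted over the same comparison, the mean of both reagents at stage 10.5 with the block, where 10% of all probe sets rose and 9.1% fell. Of 37 probe sets of paraxial mesoderm genes, 14 fell and 0 rose (median change -0.25), with the myogenic factor myf5.L at -1.72 and the presomitic factors msgn1.L and msgn1.S at -1.41 and -1.28. Of 51 probe sets of organizer and neural plate genes, 15 fell and 0 rose (median -0.24), among them the secreted antagonists cer1.S and frzb.L at -1.52 and -1.19 and the neural gene sox2.L at -1.13. The median over all probe sets was 0.01. By reagent, 17 of the 51 organizer and neural plate probe sets fell in MO1 (median -0.36) and 9 in MO2+MO3 (median -0.12), with 0 rises in each. Of all probe sets, 7.75% and 7.77% fell. Between the reagents, 10 of the 51 were lower in MO1 and 0 higher, where 5.38% and 4.36% of all were.

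Nodal pathway genes, the partners and targets of FoxH1, gave 4 rises and 5 falls among 40 probe sets (median -0.06), with the ligand gdf3.S at -0.57 and the endoderm factor mixer.L at -0.58. Genes of PI3 kinase signalling and FoxO targets gave 12 rises and 6 falls among 59 (median 0.02). Both copies of pik3r3, which codes for a regulatory subunit of PI3 kinase, were higher by 1.54 (pik3r3.S) and 1.37 (pik3r3.L), and the FoxO target bcl6.L, whose lowest array lay below a level of 4, was higher by 1.53. Cell cycle genes of the FoxM1 programme gave 7 rises and 11 falls among 47 (median 0.04), led by nek2.S at -1.34, while foxm1.S itself had a change of -0.08 and was not called. Cilia genes gave 0 rises and 2 falls among 27 (median -0.01). The lowest array lay below a level of 4 for 15 of these 27, 14 of the 37 paraxial mesoderm, 25 of the 59 PI3 kinase, 5 of the 40 Nodal, 5 of the 51 organizer and 0 of the 47 cell cycle probe sets. Without the block limma called 0 in the paraxial mesoderm, Nodal and cilia lists, where 12 of 37, 4 of 40 and 2 of 27 probe sets passed at an unadjusted p under 0.05, as 12.3% of all did. It called 1 fall each in the organizer and cell cycle lists, and 2 rises among the PI3 kinase genes. Of all probe sets it called 0.464% lower and 0.532% higher.

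Markers of the cell layers were counted beside the Fox classes for the mean of both reagents at stage 10.5. On this comparison 9.1% of all probe sets fell and 10% rose with the block. With the block 10 of 21 endoderm marker probe sets fell and 0 rose beside the falls of FoxA, and their per-array median ran from -0.46 to 0.07 in MO1, from -0.49 to 0.16 in MO2+MO3 and from -0.06 to 0.40 in CoMO. Beside the falls of FoxC, 8 of 17 mesoderm marker probe sets fell and 1 rose, with array medians from -0.34 to -0.06 in MO1, from -0.09 to -0.03 in MO2+MO3 and from 0.15 to 0.20 in CoMO. Of 20 organizer probe sets 6 fell, with array medians from -0.63 to -0.01 in MO1, from -0.11 to 0.20 in MO2+MO3 and from 0.01 to 0.26 in CoMO, and 1 of the 2 probe sets of cer1.S and the one listed as frzb with no copy suffix lay below a level of 4. Neural ectoderm markers stood beside the lower foxd3 and foxb1 in MO1, with array medians from -0.36 to -0.32 in MO1, from 0.05 to 0.21 in MO2+MO3 and from 0.02 to 0.04 in CoMO over 16 probe sets, of which 5 fell and 1, of irx3.L, lay below a level of 4.

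On the same comparison with the block, ectoderm markers fell in 12 of 17 probe sets and rose in 0. Of all probe sets 9.1% fell and 10% rose. The ectoderm array medians ran from -0.12 to -0.06 in MO1, from -0.09 to -0.05 in MO2+MO3 and from 0.35 to 0.47 in CoMO. These markers stood beside the higher foxi2, which changed in the opposite direction. Maternal transcripts rose in 7 of 17 probe sets and fell in 1, with array medians from -0.04 to 0.14 in MO1, from 0.06 to 0.09 in MO2+MO3 and from -0.32 to -0.07 in CoMO, beside the higher foxh1 and foxi2, which are maternal genes. None of these 17 lay below a level of 4. Not all Fox probe sets with a high level at stage 8 rose. Of those in the interval from 8 to 16, foxk2.L, foxn2.S and foxr1.L were not called for the mean, while the second of foxo3.L was called higher. For foxr1.L, MO1 minus CoMO was -0.30 and -0.37 within the replicate numbers, and MO2+MO3 minus CoMO was 0.10 and 0.79. The first probe set of foxh1.L was not called for the mean either. Without the block limma called 5 ectoderm and 1 neural marker probe sets lower and 0 of the other marker lists. Of all probe sets it called 0.464% lower and 0.532% higher. At an unadjusted p under 0.05 in that fit, 8 mesoderm, 3 endoderm and 1 organizer probe sets were lower, where 6.01% of all were. By the same cutoff 6 maternal ones were higher, where 6.32% of all were. All ectoderm, organizer and neural marker genes and 13 of 17 mesoderm ones also stand in another list counted here, so these counts are not independent of those of the other lists. The part of any of these marker groups in the Fox changes was not tested.

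**Figure D5:**
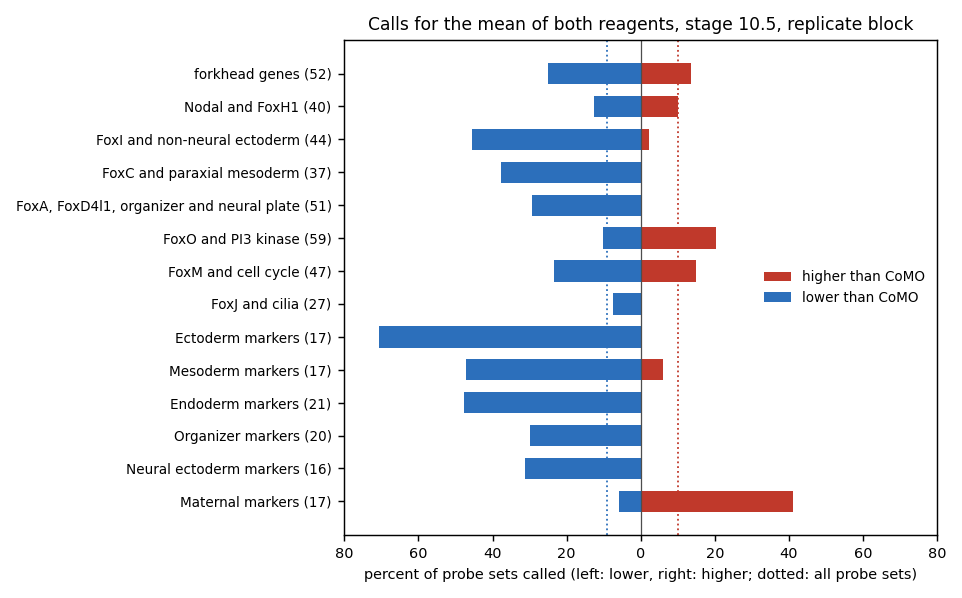
Percent of probe sets called lower (left, blue) and higher (right, red) for the mean of both reagents against CoMO at stage 10.5 with the replicate block, for the Fox genes, the 7 lists of pathway genes and the 6 lists of markers, with the number of probe sets in brackets. Dotted lines mark the percent of all probe sets, 9.1 lower and 10 higher. The blue bar of the Fox genes reaches 25, and the red one 13.5.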

How the data were processed

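Per the labels' protocols, 100 ng of RNA went into a 3' IVT labelling for each array. The authors deposited log2 values for each probe set, and the submitters' processing notes name RMA with no version. The base 2 is taken from RMA and not stated. The deposited log2 values are centred, with the median of the 6 arrays of a stage within 5e-07 of 0 for every probe set, a step no header or label records. It removes levels and any contrast between the stages. The array build is not given in the sources used here, so no coordinates are given. The number of arrays limits the precision.

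After leaving out 96 control probe sets, 32539 were tested. The platform annotation names 1 gene for 15495, several for 279 and none for 16765. Symbols were matched through gene identifiers to the RefSeq table of Xenopus_laevis_v10.1, which held 15384 and updated 2, and all 52 Fox probe sets matched. limma 3.58.1 in R 4.3.3 fitted the 12 arrays together, each group having its own coefficient, with eBayes, two-sided moderated tests and Benjamini-Hochberg adjustment over all probe sets, and calls are at an adjusted p under 0.05. Same-numbered arrays pair the samples: their deviations from the group means correlated at 0.821 to 0.864 in all 3 pairs of groups of each stage, so a fit with the replicate number as a block was made too. The residual spread had a median of 0.175 with 6 residual degrees of freedom, against 0.104 with 4 once the block was in. P-values measure only the spread between these samples. Models and the recovery of levels were tested on simulated data.

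The rule for named genes covers all probe sets of foxa2, foxc1, foxd4l1.2 and foxo3, every Fox call without the block, with the block every call for the mean of at least 0.5 and the 4 largest per direction of each reagent or 3 between the reagents, with their copies, and up to 4 called members per list. Members, lists and rules were chosen with earlier results of these data known. Lists share genes: 30 of 37 in the organizer and neural plate list and, of the markers, 13 of 13 of ectoderm, 14 of 14 of organizer, 11 of 11 of neural ectoderm, 13 of 17 of mesoderm and 8 of 16 of endoderm stand in another, and the Nodal and cilia lists hold 2 and 1 Fox genes. Alternatives were array scaling, robust eBayes, a level filter, 1 stage alone, gene means and leaving out each array.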

Additional observations from a re-analysis of the deposited data

Results flagged for a closer look

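Several Fox probe sets had effects that differed between the stages, by the limma test of that difference with the replicate block. None of these was called without the block. For MO1 the effect at stage 10.5 minus that at stage 8 was -1.029 for the first probe set of foxa1.L, -1.377 for the first of foxa2.L, -1.353 for foxc2.L, -0.6952 and -1.160 for the first and second of foxc2.S, and -0.7692 for foxd3.L. On the higher side it was 1.400 for foxd4l1.2.L, 0.5178 for the second probe set of foxh1.L, 1.051 for foxi1.L and 0.5969 for foxi2.L. The adjusted p with the block ran from 0.00351 for foxd4l1.2.L to 0.0433 for the first probe set of foxc2.S, and without it from 0.0596 for foxd4l1.2.L to 1.

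For MO2+MO3 the difference was -0.7848 for the first probe set of foxa1.L, -1.054 for the first of foxa2.L, -1.046 for foxc1.L, -1.034 for foxc2.L and -0.7567 for the first of foxc2.S, and it was 1.027 for foxi1.L and 0.961 for the second probe set of foxo3.L. The adjusted p with the block ran from 0.00644 for foxo3.L to 0.0497 for foxc1.L, and without it from 0.352 to 1. All of the FoxA, FoxC and FoxD probe sets named here had their lowest array below a level of 4 at stage 8, while foxh1.L, foxi1.L, foxi2.L and foxo3.L did not on these probe sets. For foxi1.L the difference joins changes below 0 at stage 8, of which neither was called, to changes above 0 at stage 10.5.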

How the results depend on the processing

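At stage 10.5 with the block 18 Fox probe sets were called in MO1, 13 in MO2+MO3, 20 for their mean and 7 between reagents. Without it 1, 1, 2 and 1 were. The changes between stages gave 10 and 7 with the block and 0 and 0 without it. In these 6 comparisons the block fit called 16.2%, 16.8%, 19.1%, 9.75%, 4.16% and 3.84% of all probe sets. The fit without it called 0.916%, 0.907%, 0.996%, 0.55%, 0.0215% and 0.00922%. No share of all probe sets is given for the settings below, so their Fox counts are not compared with the whole array. The 2 scalings combined with the block were chosen after seeing the data: with quantile normalization within each stage the 6 counts were 16, 14, 19, 8, 6 and 5, and with each array centred on its median 17, 14, 20, 7, 11 and 6. On the 6 arrays of stage 10.5 alone the first 4 counts were 0, 0, 0 and 0 without the block and 17, 13, 19 and 4 with it. Leaving out each array gave 1 to 2, 0 to 0, 0 to 2 and 0 to 1 without the block and 12 to 16 (15 without MO1 replicate 2), 6 to 12, 13 to 17 and 1 to 3 with it, and for the changes between stages 0 to 0 without it and 1 to 7 and 1 to 6 with it, where a lone array of a group is assumed to vary like the others. Stage 8 counts were 0 throughout. Of the 20 calls for the mean with the block, 10 held in every fit without 1 array: the first probe sets of foxa1.L and foxa2.L, foxc1.L, foxc2.L, both of foxc2.S, foxd4l1.2.L, foxi2.L and the second of foxh1.L and foxo3.L. The call of foxi2.S was lost without CoMO replicate 1 (adjusted p = 0.0729) and that of foxd3.L too (0.0507). Without the block, the mean call of foxd4l1.2.L was lost without either CoMO array (0.085 and 0.161) or either MO2+MO3 array (0.0616 and 0.0542). In direction, the second probe set of foxa1.L in MO1 reversed without the block, to 0.0304 without CoMO replicate 2 and 0.0143 without MO1 replicate 1. The cause was not tested. In the fit without the block, robust eBayes, the 2 scalings and the level filter changed no call named here. With the block, quantile normalization lost the calls of foxi1.L in MO1 and for the mean. It also lost that of the second probe set of foxa1.L in MO1. Centring each array on its median lost the call of foxi1.L in MO1. The level of a probe set was known only as an interval, which limits any filter on dim signal.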
